A study of Mus musculus with 6 samples.

Results

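Genes of cholesterol synthesis and sterol handling were examined in liver of 6 mice that had been fed a high-fat diet for 8 weeks. The list holds 32 genes: the enzymes of the mevalonate and sterol steps, the genes that control SREBP, and the genes of sterol transport, uptake and export. A gene was taken as measured where a probe set of the array names that gene and no other, and 27 of the 32 genes met this, each with a single probe set, of 14860 genes measured in all. Idi1, Tm7sf2, Acat2, Soat2 and Lipc were not analysed here, Tm7sf2 because its probe set names a second gene. Of the mice, 3 carried a knockdown of Klf6 in hepatocytes only (DeltaHepKlf6) and were recorded with improved glucose tolerance and less fat in the liver, and 3 were wild-type littermates (Control) with glucose intolerance and marked steatosis. Both groups ate the same diet, and each mouse gave 1 array of whole-liver RNA. The labels call the change both a knockdown and a knockout, and they give neither the driver of the hepatocyte knockdown nor the age or sex of the mice. The comparison was set up to look for targets of the transcription factor KLF6 in glucose and lipid metabolism.

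Cholesterol is built from acetyl-CoA through mevalonate, farnesyl diphosphate, squalene and lanosterol. When sterols in the endoplasmic reticulum are scarce, the escort protein SCAP carries the transcription factor SREBP2 to the Golgi for cleavage, and the freed factor activates nearly every gene of the route. When sterols are plentiful, INSIG proteins hold SCAP back, and oxidised sterols activate the liver X receptors (LXR), which induce the export pumps. In liver the balance between these arms sets how much cholesterol the organ makes, takes up, and sends to lipoproteins and bile.

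The letters that SREBP2 reads can be seen in the promoters of some of these genes. Of the 27 measured genes, 21 had a promoter window in the RefSeq table (GRCm38.p6), each window running from 250 bases before to 50 bases after a start site. The sterol response element was searched as TCACNCCA on both strands, and it was found in 3 of the 21 genes, Hmgcs1, Msmo1 and Srebf2, against 4.97% of the 27025 genes in the table. The CCAAT box of NF-Y, a factor known to act beside SREBP2 on promoters, was searched as CCAAT on both strands and stood in 19 of the 21, against 41.1% of all genes in the table. The stretches around the 3 sterol response elements are shown because these genes are a synthesis enzyme of the early route, one of the late route, and the gene of SREBP2 itself. Capitals mark the sterol response element and each CCAAT, which reads ATTGG where it lies on the other strand.
Hmgcs1, chr13:119690174-119690261, plus strand: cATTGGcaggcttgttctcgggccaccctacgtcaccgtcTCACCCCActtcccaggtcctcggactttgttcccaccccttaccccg
Msmo1, chr8:64733708-64733795, minus strand: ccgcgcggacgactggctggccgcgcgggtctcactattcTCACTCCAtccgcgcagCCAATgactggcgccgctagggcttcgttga
Srebf2, chr15:82147067-82147154, plus strand: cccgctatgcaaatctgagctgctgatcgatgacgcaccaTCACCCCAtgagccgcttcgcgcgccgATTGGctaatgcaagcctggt

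The element begins 137 bases before the start of Hmgcs1, 177 before that of Msmo1 and 162 before that of Srebf2. In Hmgcs1 and Srebf2 it contains the word CACCC, which Kruppel-like factors such as KLF6 can bind. That word, searched on both strands, stood in 12 of the 21 genes, against 59.8% of all genes in the table. The GC box of Sp1, GGGCGG, stood in 18 of 21 against 38.2%, and the E box CACGTG in 6 of 21 against 8.09%. A match describes these windows and does not show binding.

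No member passed the test for a difference between the groups. All values are log2 expression values, and differences are DeltaHepKlf6 minus Control on that scale. In limma, fitted on all 23332 probe sets with Benjamini-Hochberg adjustment, 0 of the 27 passed an adjusted p of 0.05, where 0% of all probe sets passed, and the adjusted p was 0.998 for every member. At an unadjusted p under 0.05 limma also counted 0 members, against 1.68% of all genes. The groups overlapped in all 27 members, whereas they did not overlap in 6.31% of all genes. The differences ran from -0.55 for Insig2 to 0.47 for Fdps, and the 95% confidence interval of every member included 0. For 24 of the 27 that interval lay inside a 2-fold change in either direction. It reached beyond 2-fold lower for Insig2 and Scap and beyond 2-fold higher for Fdps.

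With all arrays, the share of lower members was near that of genes in general. DeltaHepKlf6 was lower in 19 of the 27 members and higher in 8, a median difference of -0.11. Over all 14860 genes 62.1% were lower with a median of -0.05, and over the 7429 genes above the median level 68.7% were lower with a median of -0.09. The count of lower members stayed between 16 and 20 when 1 array was left out, and it was 15 after quantile normalization and 22 with array weights. The median ran from -0.22 without DeltaHepKlf6 2 to -0.05 without DeltaHepKlf6 1 or Control 2, was -0.06 without DeltaHepKlf6 3, and was -0.04 after quantile normalization. Over all genes the median ran from -0.10 without DeltaHepKlf6 2 to -0.003 without DeltaHepKlf6 3, and was -0.025 after quantile normalization. Without DeltaHepKlf6 3, 7562 of all 14860 genes were lower, beside 17 of the 27 members. Whole liver was measured, so a smaller share of a cell type and less RNA per cell cannot be told apart.

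**Figure D1:**
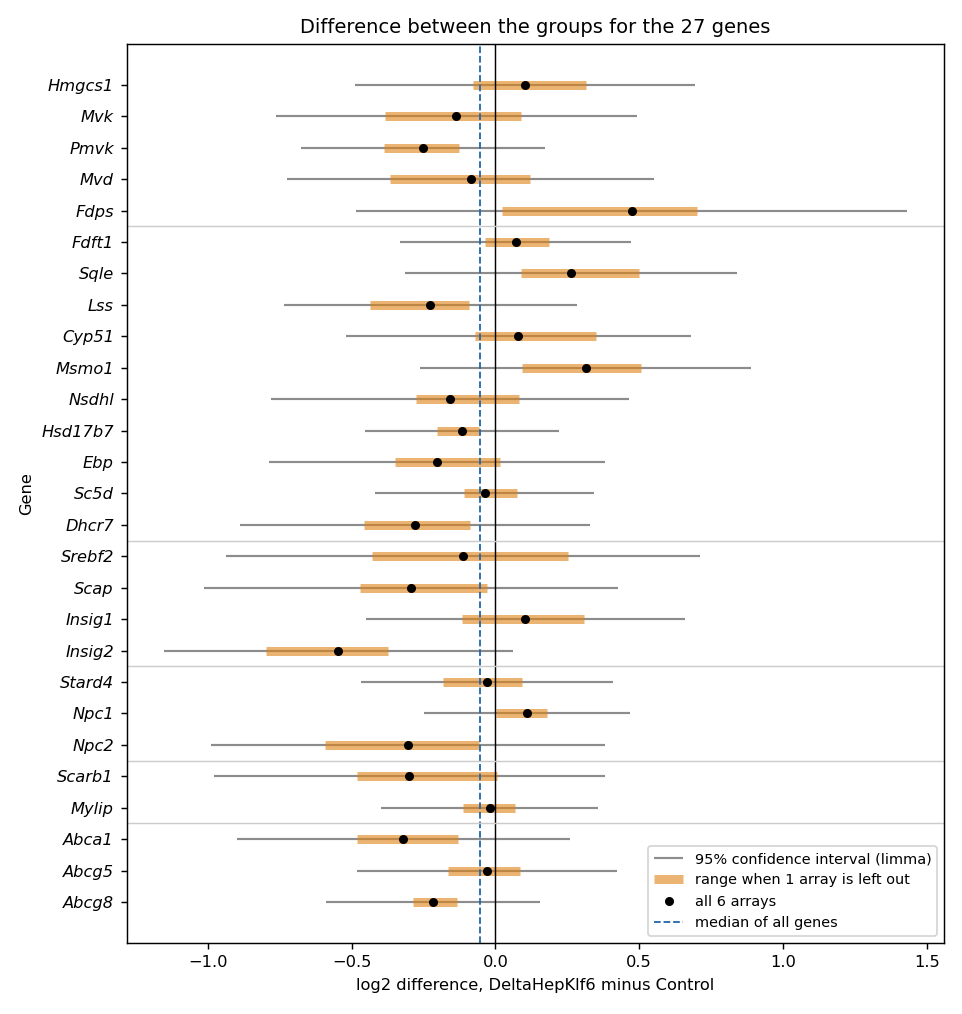
Log2 difference between DeltaHepKlf6 and Control (horizontal axis) for each of the 27 genes (vertical axis, ordered by role). Points use all 6 arrays, thin lines are limma's 95% confidence intervals, thick orange lines are the range of the difference when 1 array is left out, and the dashed line is the median of all genes, -0.05. Every interval crosses 0, and Insig2 is the lowest point at -0.55.

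Some facts of the arrays bear on these values. Klf6 was 5.93, 5.43 and 5.45 in DeltaHepKlf6 1, 2 and 3, against 6.80, 6.09 and 5.88 in Control 1, 2 and 3, a difference of -0.65 (limma, unadjusted p = 0.0587, adjusted p = 0.998), so the targeted gene itself missed the threshold. Without Control 1 the difference of Klf6 was -0.38, and with any other single array left out it lay between -0.84 and -0.57. Array medians lay between 5.49 and 5.55. The spread over probe sets was unequal, with standard deviations of 2.303, 2.362 and 2.222 in DeltaHepKlf6 1, 2 and 3, and of 2.399, 2.332 and 2.287 in Control 1, 2 and 3. Over all genes, DeltaHepKlf6 3 held the lowest value in 40.03%, and Control 1 held the highest in 34.8%. Control 3 stood apart by the 6 measured exocrine pancreas markers (of 8 listed), all highest there, whose summed level was 14.4 on the log2 scale there and at most 8.34 in the other 5 arrays. Without Control 3, 19 of the 27 members were again lower, with a median difference of -0.13, the SREBP2 targets described later had a median of -0.075, and no member passed the test. The 6 measured hepatocyte markers had a summed level of 14.89 to 14.96 in DeltaHepKlf6 and of 14.86 to 14.95 in Control. Of these markers 3 were higher and 3 lower in DeltaHepKlf6, with a median difference of 0.02. Lower in DeltaHepKlf6 were 4 of 6 endothelial markers (median -0.21), 4 of 6 stellate cell markers (median -0.09) and 2 of 3 cholangiocyte markers (median -0.08). All 8 macrophage and Kupffer cell markers were lower in DeltaHepKlf6 with a median difference of -0.48, and their summed level was 11.1 to 11.5 in DeltaHepKlf6 and 11.4 to 11.9 in Control. Their median difference was -0.27 without DeltaHepKlf6 3 and -0.34 without Control 1, with all 8 lower in both settings. The part that these array features and marker levels play in the values of the sterol genes was not tested.

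Of the 5 measured genes of the mevalonate steps, 2 were higher and 3 lower in DeltaHepKlf6, with a median difference of -0.09, and 0 passed the test. The median was -0.37 without DeltaHepKlf6 2 and 0.12 without DeltaHepKlf6 1. Hmgcs1, the cytosolic synthase that makes HMG-CoA, was 9.34, 9.52 and 9.83 in DeltaHepKlf6 1, 2 and 3, against 9.10, 9.88 and 9.40 in Control 1, 2 and 3. The DeltaHepKlf6 values lay within the range of the Control values. The mean was 9.56 ± 0.25 in DeltaHepKlf6 and 9.46 ± 0.39 in Control (SD, n = 3 each), a difference of 0.10 ± 0.24 (SE), which was -0.08 without Control 1 and 0.31 without Control 2.

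The later genes of this stretch, Mvk, Pmvk and Mvd, phosphorylate mevalonate and decarboxylate the product. Their DeltaHepKlf6 values spread widely. Mvk was 5.59, 6.54 and 6.0 in DeltaHepKlf6 1, 2 and 3, against 6.15, 6.35 and 6.04 in Control 1, 2 and 3. Mvd was 5.80, 6.78 and 6.07 in DeltaHepKlf6, against 6.40, 6.24 and 6.27 in Control. In both genes DeltaHepKlf6 1 was the lowest array of the 6 and DeltaHepKlf6 2 the highest, so that the range within DeltaHepKlf6 was 0.95 for Mvk and 0.98 for Mvd, against 0.31 and 0.16 in Control. Their differences were -0.14 ± 0.26 and -0.09 ± 0.26 (SE), became -0.385 and -0.37 without DeltaHepKlf6 2, and turned positive, 0.09 and 0.12, without DeltaHepKlf6 1. Pmvk averaged 5.52 ± 0.26 in DeltaHepKlf6 and 5.78 ± 0.12 in Control (SD, n = 3 each), a difference of -0.25 ± 0.18 (SE, limma unadjusted p = 0.196), which was -0.13 without DeltaHepKlf6 1 and -0.39 without DeltaHepKlf6 2.

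Fdps, which makes farnesyl diphosphate, had the largest positive difference, and it rested on 1 mouse. Its values were 3.88, 5.23 and 3.87 in DeltaHepKlf6 1, 2 and 3, against 4.13, 3.67 and 3.76 in Control 1, 2 and 3. Only DeltaHepKlf6 2 stood above all Control arrays. The difference of 0.47 ± 0.40 (SE) was 0.02 without it. The probe set was dim, below the array median in all 6 arrays.

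The squalene and sterol ring steps held 10 measured genes, of which 4 were higher and 6 lower in DeltaHepKlf6, with a median difference of -0.08 and 0 passing the test. That median turned to 0.02 without DeltaHepKlf6 1 and to 0.04 without Control 2, and was -0.12 without DeltaHepKlf6 2 or Control 3. Sqle, the epoxidase that commits squalene to sterols, was 9.30, 9.59 and 9.52 in DeltaHepKlf6 1, 2 and 3, against 8.86, 9.68 and 9.08 in Control 1, 2 and 3. The Control livers spanned 0.82 and enclosed the DeltaHepKlf6 livers, which spanned 0.29. The difference was 0.26 ± 0.24 (SE, limma unadjusted p = 0.310), with 0.09 without Control 1 and 0.50 without Control 2.

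Msmo1, a methyl sterol oxidase, ran alongside. It was 10.22, 10.52 and 10.48 in DeltaHepKlf6 1, 2 and 3, against 9.65, 10.48 and 10.15 in Control 1, 2 and 3. Control 1 was the lowest array and Control 2 equalled DeltaHepKlf6 3. The difference of 0.31 ± 0.24 (SE, limma unadjusted p = 0.233) was the largest of the sterol ring steps, and without Control 1 it was 0.09. Cyp51, the lanosterol demethylase, was tight in DeltaHepKlf6 at 8.98 ± 0.08 and wide in Control at 8.90 ± 0.47 (SD, n = 3 each), since Control 2 read 9.44 while Control 1 and 3 read 8.67 and 8.60.

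The other enzymes of the ring steps had differences between -0.28 and 0.07. Dhcr7, the reductase of the last step, averaged 7.05 ± 0.37 in DeltaHepKlf6 and 7.33 ± 0.31 in Control (SD, n = 3 each), a difference of -0.28 ± 0.25 (SE), or -0.11 without Control 1, -0.09 without DeltaHepKlf6 1 and -0.46 without DeltaHepKlf6 2. Lss, the cyclase that makes lanosterol, differed by -0.23 ± 0.21 (SE). It was 6.12, 6.69 and 6.0 in DeltaHepKlf6 1, 2 and 3, against 6.50, 6.59 and 6.40 in Control, and DeltaHepKlf6 2 alone kept the groups from lying apart. The difference of Lss was -0.44 without DeltaHepKlf6 2 and -0.09 without DeltaHepKlf6 3. Ebp, a sterol isomerase, differed by -0.20 ± 0.24, Nsdhl, a sterol dehydrogenase, by -0.16 ± 0.26, and Hsd17b7, a sterol keto reductase, by -0.12 ± 0.14 (SE). Without Control 1 the difference of Ebp was 0.015, since Control 1 read 9.62 against 9.04 and 8.89 in Control 2 and 3. Fdft1, the squalene synthase, differed by 0.07 ± 0.17 and Sc5d, a sterol desaturase, by -0.04 ± 0.16 (SE), the intervals reaching from -0.33 to 0.47 and from -0.42 to 0.34.

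**Figure D2:**
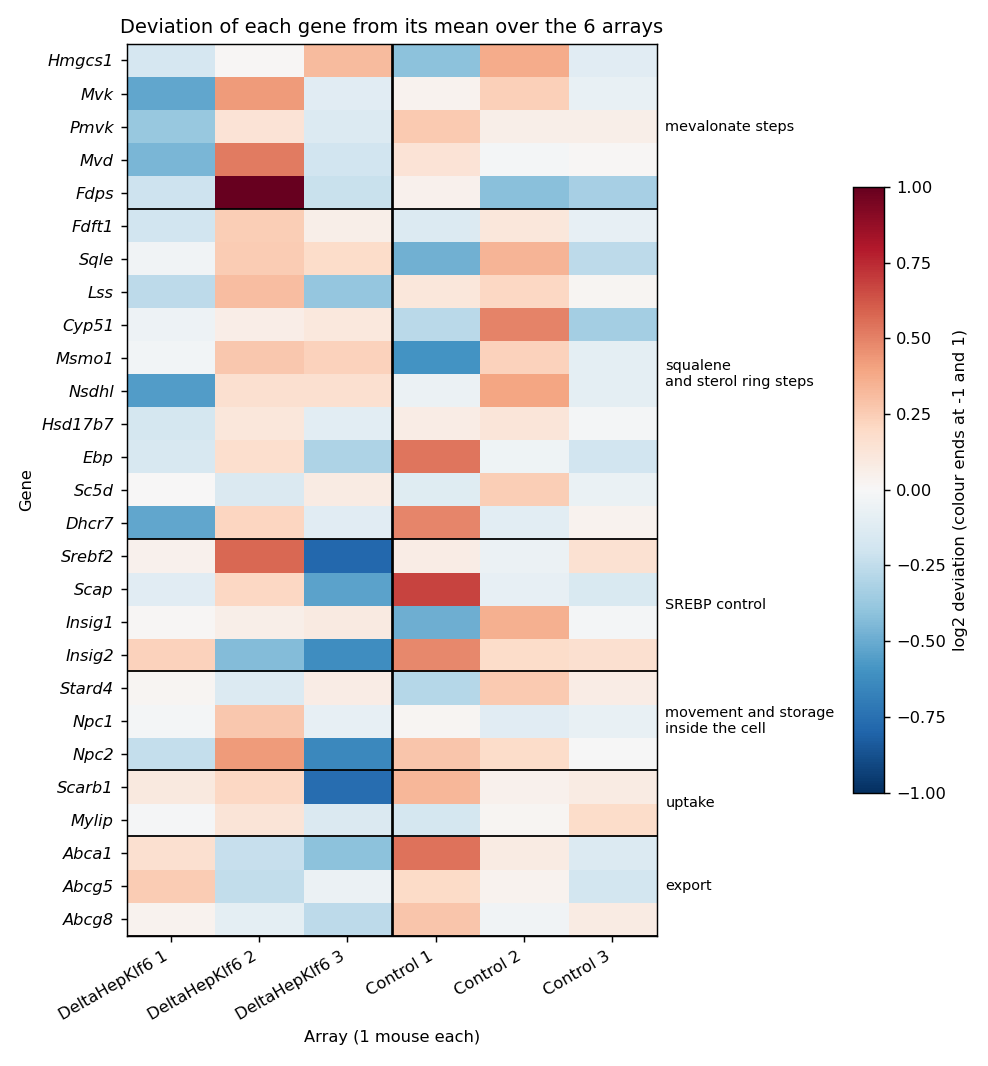
Deviation of each gene from its own mean over the 6 arrays, as log2 values in colour (red above, blue below), with genes in rows by role and arrays in columns, DeltaHepKlf6 left of the line and Control right of it. The colours change from array to array within both groups: Control 1 is blue for Hmgcs1, Sqle, Msmo1, Insig1 and Stard4, DeltaHepKlf6 1 is blue for Mvk, Mvd, Nsdhl and Dhcr7, and DeltaHepKlf6 3 is blue for Srebf2, Scap, Insig2, Npc2 and Scarb1. The deepest red is Fdps in DeltaHepKlf6 2.

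The 4 genes that control SREBP held the lowest difference of the set, with 1 higher and 3 lower in DeltaHepKlf6, a median difference of -0.20 and 0 passing the test. Without DeltaHepKlf6 3 the split was 2 and 2 with a median of -0.01, and the median was -0.45 without DeltaHepKlf6 2 and -0.11 without Control 1. Insig2, which holds SCAP in the endoplasmic reticulum, was 10.65, 9.99 and 9.80 in DeltaHepKlf6 1, 2 and 3, against 10.90, 10.60 and 10.58 in Control 1, 2 and 3. DeltaHepKlf6 2 and 3 lay below every Control liver, and DeltaHepKlf6 1 lay among them. The mean was 10.15 ± 0.45 in DeltaHepKlf6 and 10.69 ± 0.18 in Control (SD, n = 3 each), a difference of -0.55 ± 0.25 (SE) with a 95% interval of -1.15 to 0.06. The limma test gave an unadjusted p of 0.0699 and an adjusted p of 0.998. The difference was -0.80 without DeltaHepKlf6 1 and -0.37 without DeltaHepKlf6 3, and it kept its sign with any single array left out and after quantile normalization, where it was -0.465.

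Insig1, the sister gene that SREBP2 itself induces, had a small positive difference, and whether it differs from that of Insig2 was not tested. Its values were 9.79, 9.84 and 9.87 in DeltaHepKlf6 1, 2 and 3, against 9.29, 10.14 and 9.76 in Control 1, 2 and 3. The DeltaHepKlf6 livers lay within 0.08 of each other and inside the Control range of 0.85. The difference was 0.10 ± 0.23 (SE), with -0.12 without Control 1 and 0.31 without Control 2. In Control 1 Insig1 had its lowest value of the 6 arrays, and Insig2 its highest.

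Srebf2, the gene of SREBP2, was 7.52, 8.05 and 6.69 in DeltaHepKlf6 1, 2 and 3, against 7.55, 7.42 and 7.63 in Control 1, 2 and 3. The DeltaHepKlf6 group held both the highest and the lowest liver. Its range was 1.36 against 0.21 in Control, wider in DeltaHepKlf6 as in 61.1% of all genes. The difference of -0.11 ± 0.34 (SE) was -0.43 without DeltaHepKlf6 2 and 0.25 without DeltaHepKlf6 3. Scap averaged 8.28 ± 0.37 in DeltaHepKlf6 and 8.57 ± 0.46 in Control (SD, n = 3 each), a difference of -0.29 ± 0.30 (SE), which was -0.03 without Control 1, where Scap read 9.10, -0.10 without DeltaHepKlf6 3, and -0.44 and -0.47 without Control 3 and DeltaHepKlf6 2.

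**Figure D3:**
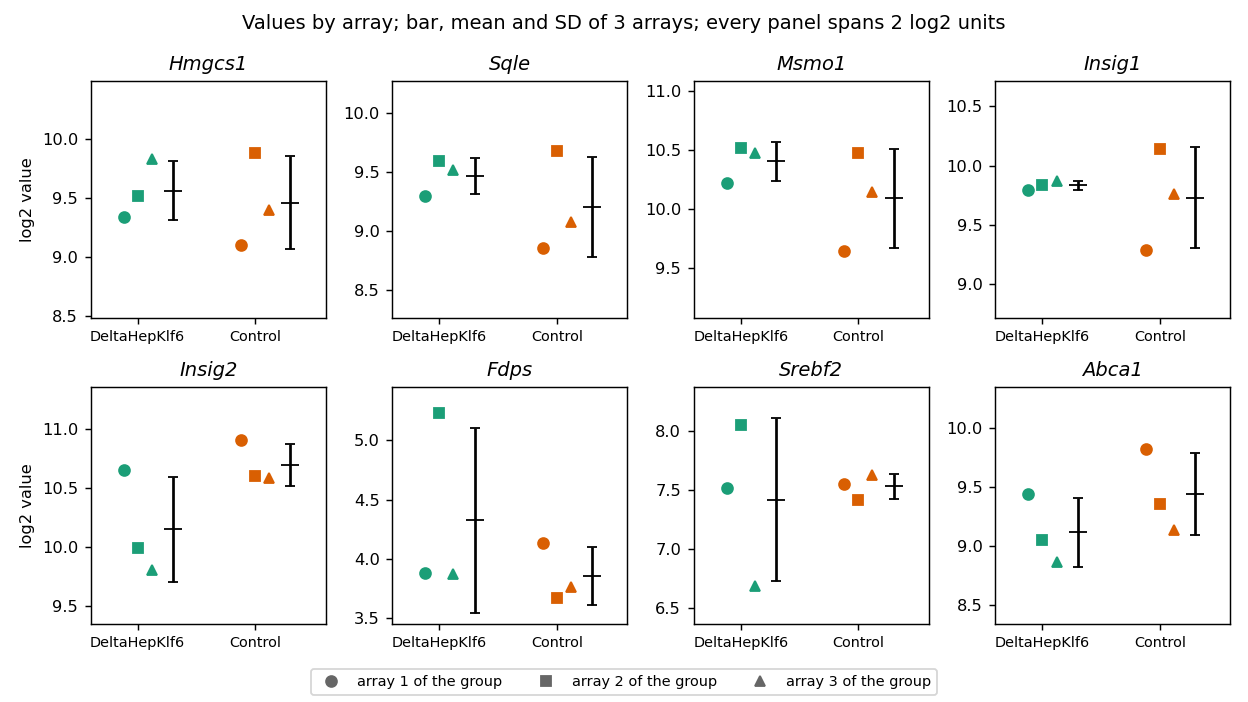
Log2 values (vertical axis) of 8 genes in each array, DeltaHepKlf6 left and Control right, with marker shapes for arrays 1, 2 and 3 of a group and black bars for the mean and SD of 3 arrays; every panel spans 2 log2 units. Insig1 lies between 9.79 and 9.87 in DeltaHepKlf6 and between 9.29 and 10.14 in Control, while Srebf2 is wide in DeltaHepKlf6 and tight in Control. The groups overlap in every panel.

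The known SREBP2 targets were described as one list, namely the synthesis enzymes with Insig1, Srebf2 and Stard4. Of 21 listed genes 18 were measured, 7 higher and 11 lower in DeltaHepKlf6, with a median difference of -0.06 beside -0.05 over all genes, and 0 passed the test. Leaving out DeltaHepKlf6 1 brought the median to 0.09 and leaving out DeltaHepKlf6 2 to -0.12, while Control 2 left out gave 0.04. After quantile normalization 9 were higher and 9 lower.

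The livers in which these targets were highest and lowest were counted beside the same counts over all genes. Control 1, the array in which 34.8% of all genes were highest and 9.52% lowest, held the lowest value of 5 of the 18 targets, Hmgcs1, Sqle, Msmo1, Insig1 and Stard4, and the highest of 3. Control 2 held the highest value of 8 of the 18, against 10.7% of all genes. DeltaHepKlf6 1 held the lowest value of 7, against 19.0% of all genes. These counts were read after the values were seen and describe 6 livers, 1 at each point. After quantile normalization Control 1 and DeltaHepKlf6 1 each held the lowest value of 8 targets, against 2050 and 3812 of all 14860 genes. Control 2 then held the highest of only 3 targets, against 1647 of all genes. DeltaHepKlf6 3 held the highest of 7, against 2189 of all genes, so which liver stood highest depended on the scaling.

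**Figure D4:**
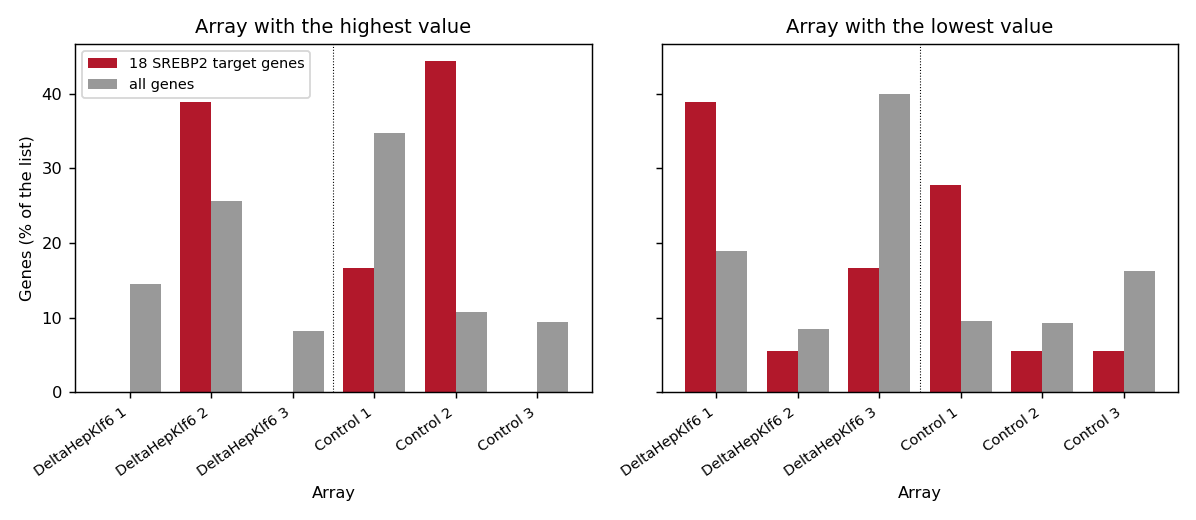
Share of genes, in percent, whose highest value (left panel) or lowest value (right panel) fell in each array, for the 18 SREBP2 target genes (red) and all 14860 genes (grey), with deposited values and DeltaHepKlf6 arrays left of Control arrays. Of the targets, 8 were highest in Control 2 and 7 in DeltaHepKlf6 2, and 7 were lowest in DeltaHepKlf6 1 and 5 in Control 1. After quantile normalization 3 were highest in Control 2.

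Of the 3 measured genes that move sterols inside the cell, 1 was higher and 2 were lower in DeltaHepKlf6, with a median difference of -0.03 and 0 passing the test. That median ran from -0.18 without Control 1 to 0.08 without Control 2. Stard4, a carrier that shuttles cholesterol between membranes, averaged 7.82 ± 0.11 in DeltaHepKlf6 and 7.85 ± 0.28 in Control (SD, n = 3 each). Its difference of -0.03 ± 0.18 (SE) was -0.18 without Control 1. Npc1 and Npc2 together pass cholesterol out of lysosomes. Npc1 was 10.01, 10.30 and 9.95 in DeltaHepKlf6 1, 2 and 3, against 10.05, 9.92 and 9.96 in Control 1, 2 and 3, a difference of 0.11 ± 0.15 (SE), and only DeltaHepKlf6 2 exceeded the Control range. The difference of Npc1 was 0.003 without that array and 0.18 without DeltaHepKlf6 3, and after quantile normalization it was 0.21 and the groups did not overlap, as in 8.14% of all genes. Npc2 was 8.28, 8.94 and 7.87 in DeltaHepKlf6, against 8.79, 8.70 and 8.51 in Control. Its difference was -0.30 ± 0.28 (SE), or -0.59 without DeltaHepKlf6 2 and -0.06 without DeltaHepKlf6 3.

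On the uptake side, Scarb1, the receptor that takes cholesteryl esters from HDL, was 8.75, 8.86 and 7.89 in DeltaHepKlf6 1, 2 and 3, against 8.98, 8.69 and 8.73 in Control 1, 2 and 3. DeltaHepKlf6 3 alone lay below the Control range. The difference of -0.30 ± 0.28 (SE, limma unadjusted p = 0.325) was 0.005 without it. In the same array 57.4% of the genes above the median level had their lowest value. Mylip, a ubiquitin ligase that sends lipoprotein receptors to lysosomes, averaged 6.69 ± 0.13 in DeltaHepKlf6 and 6.71 ± 0.18 in Control (SD, n = 3 each), a difference of -0.02 ± 0.16 (SE).

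The export pumps and Mylip, all known LXR targets, were read apart from the SREBP2 targets. All 4 were lower in DeltaHepKlf6, beside 62.1% of all genes, with a median difference of -0.12 and 0 passing the test. Mylip, at -0.02, and Abcg5, at -0.03, lay near 0. After quantile normalization 2 were lower and 2 higher. With DeltaHepKlf6 2, DeltaHepKlf6 3, Control 1 or Control 3 left out, 3 were lower and 1 higher. Leaving out DeltaHepKlf6 1 gave a median of -0.23 and leaving out DeltaHepKlf6 3 gave -0.07. Abca1, which loads cholesterol onto apolipoprotein particles, was 9.44, 9.05 and 8.87 in DeltaHepKlf6 1, 2 and 3, against 9.82, 9.36 and 9.14 in Control 1, 2 and 3. DeltaHepKlf6 2 and 3 lay below all Control livers and DeltaHepKlf6 1 above Control 2 and 3, as for Insig2. The difference was -0.32 ± 0.24 (SE, limma unadjusted p = 0.228), or -0.13 without Control 1, -0.195 without DeltaHepKlf6 3 and -0.48 without DeltaHepKlf6 1.

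Abcg5 and Abcg8 encode the 2 subunits of the pump that sends sterols into bile, and they are transcribed away from each other. Their promoter windows in the RefSeq table share 209 bases, and the 109 bases between the start sites are shown because they lie upstream of both genes. None of the sterol response element, CCAAT or GGGCGG letters lies in this stretch, which is why it holds no capitals. A CCAAT within the shared bases lies directly to its left, at the start of Abcg5 and 114 bases before that of Abcg8.
Abcg5 and Abcg8, chr17:84683012-84683120, plus strand, Abcg5 to the left: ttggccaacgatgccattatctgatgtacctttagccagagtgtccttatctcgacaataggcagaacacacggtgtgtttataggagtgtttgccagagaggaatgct

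Abcg5 was 9.07, 8.57 and 8.76 in DeltaHepKlf6 1, 2 and 3, against 9.01, 8.85 and 8.63 in Control 1, 2 and 3. Abcg8 was 7.44, 7.31 and 7.14 in DeltaHepKlf6, against 7.68, 7.37 and 7.49 in Control. The differences were -0.03 ± 0.19 for Abcg5 and -0.22 ± 0.15 for Abcg8 (SE), with intervals of -0.48 to 0.42 and -0.59 to 0.15. Without Control 1 the difference of Abcg8 was -0.13, without DeltaHepKlf6 3 it was -0.14, and after quantile normalization it was -0.12. That of Abcg5 ran from -0.165 without DeltaHepKlf6 1 to 0.085 without DeltaHepKlf6 2. In neither gene did the groups lie apart, and whether the difference of Abcg5 differed from that of Abcg8 was not tested.

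Of 41 further genes of sterol biology, 30 were measured, and 22 of them were lower in DeltaHepKlf6. The other 8 were higher, except Rnf139 and Apoe, whose means were equal in both groups, at 8.15 and 12.85. The median difference was -0.145, 0 passed the test, and 22 had their lowest value in DeltaHepKlf6 3. Without that array 14 were higher and 16 lower with a median of -0.03, and the median was -0.25 without DeltaHepKlf6 2 and -0.235 without Control 2. By the size of the unadjusted p, Ch25h came first, which makes an oxysterol that restrains SREBP processing. Its values were 3.09, 2.59 and 2.56 in DeltaHepKlf6 1, 2 and 3, against 4.53, 3.71 and 3.09 in Control 1, 2 and 3, all below the array medians. The groups met at 3.09, and the difference was -1.03 ± 0.38 (SE, limma unadjusted p = 0.033, adjusted p = 0.998), or -0.65 without Control 1.

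Lcat, the plasma enzyme that esterifies cholesterol on HDL, averaged 11.48 ± 0.45 in DeltaHepKlf6 and 12.05 ± 0.24 in Control (SD, n = 3 each), a difference of -0.57 ± 0.26 (SE, limma unadjusted p = 0.069). Erlin2, which takes part in sterol-driven protein degradation in the endoplasmic reticulum, had a difference of -0.38 ± 0.24 (SE), with -0.15 when DeltaHepKlf6 3 was left out and -0.24 when Control 1 was. Rnf145, a ubiquitin ligase of the same membrane, differed by -0.22 ± 0.14 (SE).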

How the data were processed

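Liver RNA of 3 DeltaHepKlf6 and 3 Control mice was measured on Affymetrix exon arrays. The authors deposited log2 values, rounded to 2 decimals, for 23332 probe sets, and the tools listed in the submitters' processing notes are RMA, limma and Affymetrix Expression Console, with no version. The log2 unit was read from the range, 0.65 to 14.35. For the genome build of the probe sets, the sources used here give nothing. No detection calls were used. With 3 arrays a group, precision is limited by their number.

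Genes were named from the platform annotation. Probe sets that name 1 gene numbered 14996, several genes 1019 and no gene 7317, and the brightest set by the mean of 6 arrays stood for a gene. All 27 members matched the RefSeq gene table by identifier. All probe sets entered 1 limma 3.58.1 model (lmFit, eBayes; R 4.3.3) of DeltaHepKlf6 minus Control, without covariates or a filter, with Benjamini-Hochberg adjustment. The model was tested on simulated data with independent normal noise for each probe set and array. It recovered 12% of 100 probe sets shifted by a log2 value of 1, and 82% of 100 shifted by 2. It also called 4 unchanged probe sets. Lists were described by counts and medians only. Summed marker levels are log2 of summed linear values. Promoter windows came from RefSeq (GRCm38.p6). Tables and plots were made in Python 3.11.15 (matplotlib 3.10.9, pandas 2.3.3).

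The members, lists and settings were chosen with earlier results of these data known. All measured members are named, and values in every array were planned for Srebf2, Insig1, Insig2, Sqle, Hmgcs1, Idi1, Abca1, Abcg5, Abcg8, Scarb1 and any member with groups apart, an unadjusted p under 0.05 or a difference of 0.5 or more. Array values of other members were added after their values were seen. Up to 4 of the further sterol genes are named, by unadjusted p, and Klf6 as the targeted gene. Other settings were a variance trend with robust estimation, filters on dim probe sets, quantile normalization, equal medians, array weights, the replicate number as a block, the mean of a gene's probe sets and leaving out each array. No 2 arrays were taken as 1 sample, and 0 sample columns were left unused.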

Additional observations from a re-analysis of the deposited data

How the results depend on the processing

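Under none of the alternatives was a member called, with a smallest adjusted p of 0.640 in limma over all settings. The members at an unadjusted p under 0.05 numbered 0 with all arrays, where 3.21% of all probe sets passed. They numbered 0 to 2 with 1 array left out, where 2.89% to 7.7% of all probe sets did. These shares are over all probe sets, with or without a gene name, whereas the 1.68% given earlier is over genes. The 2 were Lss and Npc2 without DeltaHepKlf6 2, the setting with 7.7%. Insig2 was the only one without DeltaHepKlf6 1 (limma, unadjusted p = 0.0063), where 3.42% of all probe sets passed. Sqle was the only one without Control 2 (limma, unadjusted p = 0.041), where 3.03% did. The members whose groups lay apart numbered 0 with all arrays, 0 to 7 with 1 array left out and 1 after quantile normalization (Npc1), where 8.14% of all genes lay apart. Without DeltaHepKlf6 2 the 7 were Mvk, Pmvk, Mvd, Lss, Hsd17b7, Dhcr7 and Npc2, where 26.8% of all genes lay apart. Without Control 2 they were Sqle, Cyp51, Msmo1, Insig1 and Abcg8, where 13.7% did. Without DeltaHepKlf6 1 they were Insig2, Abca1 and Abcg8, where 14.3% did, and without Control 1 only Fdps, where 11.7% did.

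Of the 27 differences, 13 kept their sign under every alternative run. Quantile normalization turned Sc5d to 0.033, Stard4 to 0.062, Mylip to 0.042 and Abcg5 to 0.055, and array weights turned Hmgcs1 to -0.10, Fdft1 to -0.055, Cyp51 to -0.12, Insig1 to -0.066 and Abcg5 to 0.064. With 1 array left out the difference ranged from -0.077 to 0.31 for Hmgcs1, -0.385 to 0.09 for Mvk, -0.37 to 0.12 for Mvd, -0.035 to 0.185 for Fdft1, -0.072 to 0.35 for Cyp51, -0.28 to 0.083 for Nsdhl and -0.35 to 0.015 for Ebp. It ranged from -0.11 to 0.077 for Sc5d, -0.43 to 0.25 for Srebf2, -0.12 to 0.31 for Insig1, -0.18 to 0.093 for Stard4, -0.48 to 0.005 for Scarb1, -0.11 to 0.068 for Mylip and -0.165 to 0.085 for Abcg5. Without a change of sign it ranged from -0.39 to -0.13 for Pmvk, 0.02 to 0.70 for Fdps, 0.09 to 0.50 for Sqle, -0.44 to -0.09 for Lss, 0.09 to 0.51 for Msmo1, -0.20 to -0.06 for Hsd17b7, -0.46 to -0.09 for Dhcr7, -0.47 to -0.03 for Scap, -0.80 to -0.37 for Insig2, 0.003 to 0.18 for Npc1, -0.59 to -0.06 for Npc2, -0.48 to -0.13 for Abca1 and -0.29 to -0.13 for Abcg8. The cause of these turns was not tested, and the settings that leave out 1 array also use fewer arrays.

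Correlations of deviations from the group means were -0.133, -0.167 and 0.21 between arrays of the same replicate number. Between arrays of different numbers they ran from -0.276 to 0.341. The deviations of 3 arrays from their own mean sum to 0, so these correlations cannot settle whether the numbers pair the arrays. With the replicate block 1 member, Insig2, had an unadjusted p under 0.05 in limma, beside 3.79% of all probe sets, and 0 were called. The unadjusted p of Klf6 was 0.0147 in limma with the block. Filters on dim probe sets removed Fdps. With 3 arrays a group, changes of 1 on the log2 scale were mostly missed in simulation, which held no shifts shared across an array.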
